A study of Mus musculus with 17 samples.

Results

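Mcpt8, Hdc, Cpa3, Prss34, Ms4a2, Fcer1a, Gata2 and Cd200r3 are 8 genes by which mouse basophils are commonly recognised, and their levels are described here in 17 RNA libraries of T helper 2 (Th2) cells. The rows were taken by gene symbol, and all 8 were found among the 24537 genes of every library. The set was chosen by measured levels: Mcpt8 and Hdc had been seen to be abundant in some of these libraries and lower in others. The levels in lymph node and airway are therefore a description and carry no test. The study asked how Notch signalling bears on the movement of Th2 cells out of the lymph node in allergic airway inflammation.

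The libraries were made with Smart-seq2, a full-length protocol for small cell numbers, from lymphocytes sorted by FACS. The airway reporter libraries (n = 3) and those of the lymph node (n = 3) came from Gata3-YFP mice, called GATIR, in which a yellow fluorescent protein reports the Th2 regulator Gata3. Both reporter groups were titled wild type (WT). Airway cells were recovered by bronchoalveolar lavage, and lymph node cells from the mediastinal node, which drains the lung. The lymph node OTII groups were labelled Notch1/2-KO (4 libraries) and wild type (3 libraries). OTII mice carry a transgenic T cell receptor for ovalbumin, and here both genotypes carried it. The culture OTII groups, Notch1/2-KO (2 libraries) and wild type (2 libraries), were naive T cells of the spleen, activated through CD3 and CD28 and kept 7 days under IL-4 with IFN-γ and IL-12/23 blocked by antibodies. Allergic airway inflammation had been induced in all mice that gave sorted airway or lymph node cells. Of these mice the labels give no age, no Cre driver and no animal for a library. They call the libraries biological replicates without saying that each is another mouse, so a p-value measures the spread between these libraries.

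Depth read back from the tables was 16.3 to 17.5 M reads in the reporter libraries and 18.9 to 27.5 M reads in the OTII libraries. Notch1, a targeted gene, averaged 10.9 ± 2.31 scaled RPKM (reads per transcript length and library depth, rescaled between libraries) in KO lymph node libraries, against 47.9 ± 1.47 in wild type (SD, n = 4 and 3; limma adjusted p = 5.49e-05). In culture Notch1 averaged 2.64 ± 2.24 in KO, against 27.9 ± 2.22 in wild type (SD, n = 2 each; limma adjusted p = 0.333). Notch2, the other gene of the label, did not fall: in lymph node it averaged 16.2 ± 2.09 in libraries labelled KO, against 7.88 ± 0.305 in wild type (log2 fold change 0.95, limma adjusted p = 5.95e-04), and in culture 6.90 ± 0.365 against 7.51 ± 0.198 (limma adjusted p = 0.9997). Its RNA level thus goes against the label, and the value of a whole transcript does not show which exons were deleted. The name KO below stands for libraries labelled Notch1/2-KO. Of 3073 genes at 20 or more in every OTII library, 38, 49 and 2 had a value of 0 in airway replicates 1, 2 and 3, against 1, 0 and 1 in the reporter replicates of the lymph node. A value of 0 in an airway library is therefore given as listed at 0.

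Basophils are rare granulocytes that leave the bone marrow for the blood and enter inflamed tissue and lymph nodes. They carry the high-affinity IgE receptor, which is built from an alpha chain (Fcer1a), a beta chain (Ms4a2) and the shared gamma chain (Fcer1g). When allergen links the IgE on that receptor, the cell releases histamine and granule proteases and secretes IL-4 and IL-13, cytokines that Th2 cells also make. Hdc encodes histidine decarboxylase, which makes histamine. Mcpt8 and Prss34 encode granule serine proteases of mouse basophils, and Cpa3 encodes carboxypeptidase A3, found in both mast cell and basophil granules. Gata2 encodes a transcription factor required for basophil and mast cell development. Cd200r3 encodes an activating receptor of the CD200 receptor family, found on mouse basophils and mast cells.

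The promoters of 5 members are printed because these genes split the set: Mcpt8, Hdc and Cd200r3 were read in every reporter library, while the IgE receptor chains Ms4a2 and Fcer1a were listed at 0 in all of them. Each line runs 5′ to 3′ in the direction of transcription, from 250 bases before to 50 bases after the start site, and is credited to RefSeq on GRCm38.p6. The positions are chr14:56085148-56085447 (minus strand) for Mcpt8, chr2:126618629-126618928 (minus) for Hdc and chr16:44943428-44943727 (plus) for Cd200r3. Those of the receptor chains are chr19:11623670-11623969 (minus) for Ms4a2 and chr1:173227180-173227479 (minus) for Fcer1a. Capitals mark AGATAA or TGATAA, which are among the letters that GATA factors bind, or their reverse complements TTATCT and TTATCA. The forms that end in G, AGATAG and TGATAG, were not searched or marked. The Hdc line holds TGATAG and the Cd200r3 line AGATAG.
Mcpt8: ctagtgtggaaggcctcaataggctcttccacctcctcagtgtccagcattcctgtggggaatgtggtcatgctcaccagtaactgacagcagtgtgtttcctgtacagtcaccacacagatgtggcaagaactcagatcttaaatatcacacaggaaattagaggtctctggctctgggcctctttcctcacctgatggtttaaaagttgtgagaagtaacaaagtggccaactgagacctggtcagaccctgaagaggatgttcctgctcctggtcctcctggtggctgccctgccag
Hdc: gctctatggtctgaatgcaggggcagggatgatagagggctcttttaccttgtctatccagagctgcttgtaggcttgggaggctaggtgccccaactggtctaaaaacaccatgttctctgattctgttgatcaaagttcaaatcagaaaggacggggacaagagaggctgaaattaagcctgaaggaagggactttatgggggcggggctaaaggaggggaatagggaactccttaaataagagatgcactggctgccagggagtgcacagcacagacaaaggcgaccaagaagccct
Cd200r3: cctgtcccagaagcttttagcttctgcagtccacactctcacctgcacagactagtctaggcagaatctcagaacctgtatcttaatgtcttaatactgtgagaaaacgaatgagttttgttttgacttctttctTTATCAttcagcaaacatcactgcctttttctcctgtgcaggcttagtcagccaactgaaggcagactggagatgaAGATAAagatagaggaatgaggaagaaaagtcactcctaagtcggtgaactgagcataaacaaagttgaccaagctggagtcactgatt
Ms4a2: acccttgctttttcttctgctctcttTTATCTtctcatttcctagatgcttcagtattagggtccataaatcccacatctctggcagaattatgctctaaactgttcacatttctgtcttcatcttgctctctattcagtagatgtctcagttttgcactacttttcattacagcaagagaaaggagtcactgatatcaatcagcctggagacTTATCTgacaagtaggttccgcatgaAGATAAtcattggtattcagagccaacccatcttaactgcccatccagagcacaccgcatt
Fcer1a: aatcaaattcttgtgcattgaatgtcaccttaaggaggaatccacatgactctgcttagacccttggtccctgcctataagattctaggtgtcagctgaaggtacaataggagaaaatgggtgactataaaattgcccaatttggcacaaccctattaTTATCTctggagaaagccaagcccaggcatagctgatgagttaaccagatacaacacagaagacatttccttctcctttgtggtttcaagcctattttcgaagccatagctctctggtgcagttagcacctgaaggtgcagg
All 8 members had a promoter of 300 bases in the RefSeq table, and 5 held AGATAA or TGATAA on either strand. By comparison, 18.6% of the 32851 promoters in the table held at least 1 of these motifs. Ms4a2 held 3 matches, starting 224, 37 and 11 bases before its start site. Cd200r3 held 2, at 115 and 39 bases before it, and Fcer1a 1, at 92 bases. Cpa3 and Prss34 held 1 match each, at 46 and 31 bases before their start sites. No match to AGATAA or TGATAA lay in these windows of Mcpt8, Hdc and Gata2. TGGGAA is a form of the letters bound by Rbpj, the DNA-binding partner of Notch. It was in 0 of the 8 promoters on either strand, against 25.6% of all promoters. The form TGAGAA was not searched. The Mcpt8 and Cd200r3 lines hold it and the Ms4a2 line holds its reverse complement, TTCTCA, so nothing is read from the count of TGGGAA. A match describes the letters only, and no match says nothing about a factor.

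The label of the set did not hold as a whole in the sorted libraries. Mcpt8, Hdc and Cd200r3 were abundant in the reporter libraries, whereas Fcer1a, Ms4a2, Gata2 and Prss34 were listed at 0 in all 6 of them. In the 3 lymph node reporter libraries, 0 reads allow up to 3 reads, which is 0.138 to 0.153 scaled RPKM for Fcer1a and 0.0580 to 0.0645 for Ms4a2, for counting error only. No such limit is given for the airway libraries. The reporter signal is therefore named below by its leading genes, Mcpt8, Hdc and Cd200r3, and not by a cell type. The summed level of the 8 members was 179 to 319 scaled RPKM in the airway libraries and 593 to 915 in the lymph node reporter libraries. It was 0.134 to 0.713 in KO and 2.32 to 2.72 in wild type lymph node OTII libraries, and 5.72 to 8.003 in KO and 6.58 to 16.1 in wild type cultures. In bulk RNA, fewer cells of a type and less RNA per cell cannot be told apart.

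**Figure D1:**
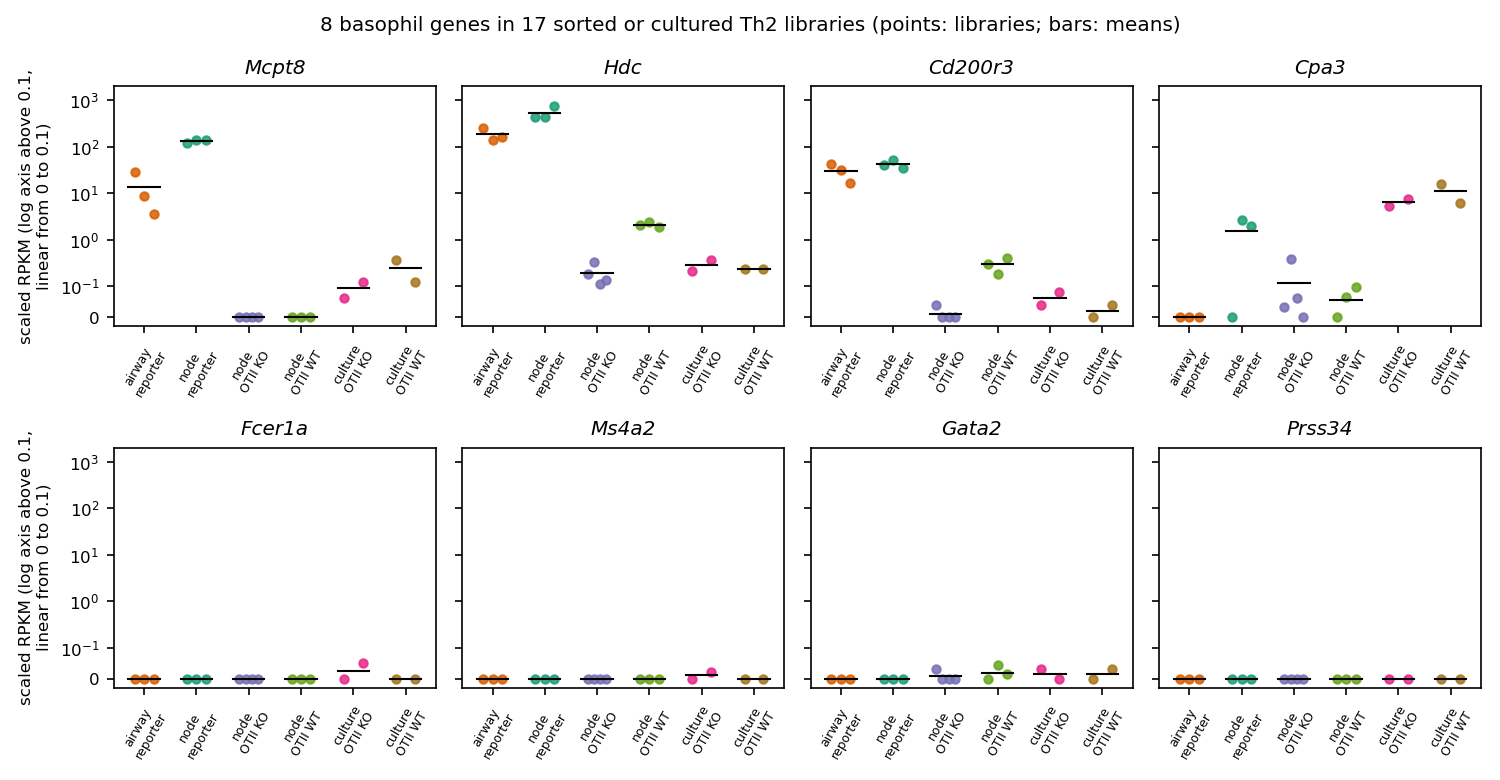
Scaled RPKM of each of the 8 genes (y axis, logarithmic above 0.1 and linear from 0 to 0.1) in the 6 groups (x axis), with a point per library and a bar at the group mean. Mcpt8, Hdc and Cd200r3 stood at 3.49 scaled RPKM or more in every reporter library, while the 4 genes in the lower row stood at or near 0 in all 17 libraries.

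Hdc (NM_008230, chromosome 2, 126593660 to 126618678, minus strand, mm10) was the most abundant member in all 6 reporter libraries. It had 248, 139 and 160 scaled RPKM in the airway libraries, against 437, 426 and 738 in the reporter libraries of the lymph node. The groups did not overlap, and the highest value, in lymph node replicate 3, rested on 35367 reads. Ranked among all genes of its library, Hdc stood at 222, 499 and 404 in the airway and at 76, 90 and 32 in the lymph node. The means were 182 ± 57.5 in the airway and 533 ± 177 in the lymph node (SD, n = 3 each), a log2 fold change of -1.54 (SE 0.26).

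Mcpt8 (NM_008572, chromosome 14, 56082164 to 56085197, minus strand) had 28.5, 8.79 and 3.49 scaled RPKM in the airway libraries, from 417, 141 and 55 reads. In the lymph node reporter libraries it had 117, 140 and 140, from 2072, 2230 and 2345 reads. The lymph node values lay close together, while the airway values were further apart and all lay below them. The means were 13.6 ± 13.2 in the airway and 132 ± 13.5 in the lymph node (SD, n = 3 each), a log2 fold change of -3.61 (SE 0.57). Leaving out airway replicate 1 gave -4.32 and leaving out airway replicate 3 gave -2.97.

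Cd200r3 (NM_027578, chromosome 16, 44943678 to 44981380, plus strand) had 42.9, 31.0 and 16.4 scaled RPKM in the airway libraries, against 39.5, 50.6 and 35.4 in those of the lymph node. The groups overlapped, since airway replicate 1 lay above lymph node replicates 1 and 3. The log2 fold change was -0.55 (SE 0.35), smaller than that of the other abundant members.

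Cpa3 (NM_007753, chromosome 3, 20215616 to 20242181, minus strand) was listed at 0 in all 3 airway libraries. Lymph node reporter libraries had 0, 2.64 and 1.97 scaled RPKM, from 0, 73 and 57 reads. It was thus missing from lymph node replicate 1, which had 22280 reads of Hdc.

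Only Mcpt8, Hdc and Cd200r3 of the 8 members passed the filter on low values in the reporter libraries (scaled RPKM of at least 1 in 3 libraries or more). Mcpt8 and Hdc were lower in every airway library than in any lymph node library, as were 13.8% of the 10111 genes tested. This contrast was known when the members were chosen, so nothing is read from that count.

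The abundant members did not keep a constant ratio to each other within the reporter libraries. Hdc stood 8.69-fold, 15.8-fold and 46.0-fold above Mcpt8 in the airway libraries, against 3.75-fold, 3.05-fold and 5.25-fold in the lymph node libraries. The ratio of Cd200r3 to Mcpt8 was 1.504, 3.53 and 4.69 in the airway, against 0.339, 0.362 and 0.252 in the lymph node. Both ratios were higher in every airway library than in any lymph node library. The ratio of Hdc to Cd200r3 was 5.78, 4.49 and 9.80 in the airway and 11.1, 8.41 and 20.8 in the lymph node, where the groups overlapped. Set against Il4, which encodes interleukin-4, Hdc stood at 1.33, 0.852 and 1.75 in the airway and at 1.32, 0.830 and 1.28 in the lymph node. The ratio of Mcpt8 to Il4 was 0.153, 0.0538 and 0.0381 in the airway, and 0.353, 0.273 and 0.243 in the lymph node. The members were chosen with these levels known, so the ratios have no test either.

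**Figure D2:**
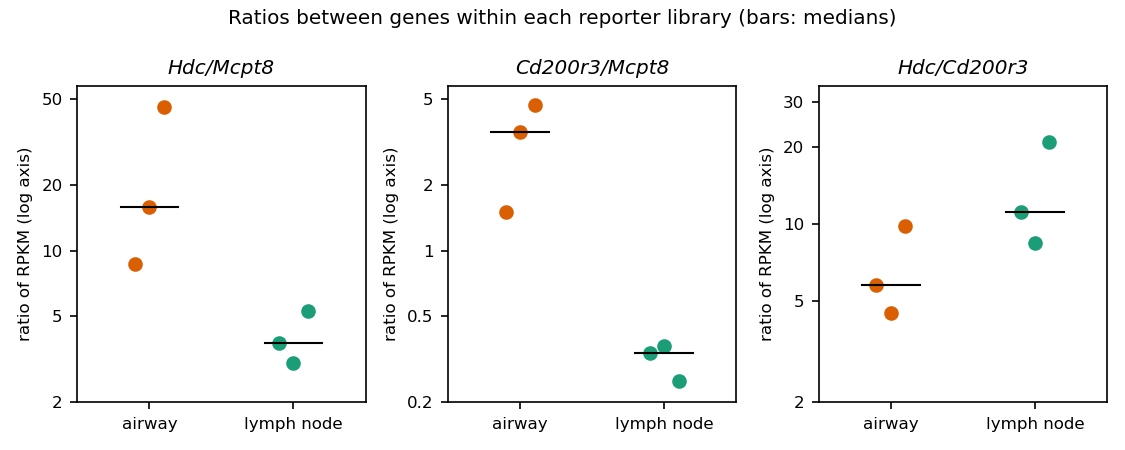
Ratios of RPKM between members within each reporter library (y axes, logarithmic), with a point per library and a bar at the median of the airway and of the lymph node group. The ratios of Hdc and of Cd200r3 to Mcpt8 were higher in all 3 airway libraries, from 8.69 against at most 5.25 and from 1.504 against at most 0.362.

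The same genes stood far lower in the lymph node OTII libraries. Mcpt8 had 0 reads in all 7 of them, Hdc at most 2.43 and Cd200r3 at most 0.398 scaled RPKM. Relative to the wild type OTII libraries of the same node, the lymph node reporter mean was at least 746-fold higher for Mcpt8 (against a floor of 3 reads per library), 255-fold for Hdc and 142-fold for Cd200r3. Of 6 other genes looked at, Il6 differed by 186-fold, more than Cd200r3. The others differed by 27.5-fold for Il1rl1 (the interleukin-33 receptor), 10.6-fold for Il4, 9.46-fold for Il13, 7.21-fold for Gata3 and 1.34-fold for Cd4. All 3 abundant members were higher in each lymph node reporter library than in any lymph node OTII library, as were 20.6% of 11171 genes. The kind of mouse and the set of libraries cannot be told apart here, and no test was made.

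Within the lymph node OTII libraries, where Notch1 but not Notch2 was lower in those labelled KO, Hdc was the member with the most reads. It had 0.181, 0.331, 0.110 and 0.134 scaled RPKM in KO libraries, from 9, 20, 6 and 6 reads, against 2.01, 2.43 and 1.83 in wild type libraries, from 88, 124 and 95 reads. Every KO library lay below every wild type library, as did 14.1% of the 10869 genes tested. Pooled, 41 reads in KO stood against 307 in wild type, a ratio per depth of 0.0932 (95% interval 0.0656 to 0.129, for counting error only). On the log2(scaled RPKM + 1) scale the change was -1.38 (SE 0.13), and it was -2.97 with a pseudocount of 0.1 and -3.49 with limma voom on the reads. This contrast too was known when the members were chosen, and no p is given.

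Cd200r3 had 1, 0, 0 and 0 reads in the KO libraries, against 7, 5 and 11 in the wild type libraries. Pooled, this was 1 read against 23, a ratio per depth of 0.0304 (95% interval 0.000737 to 0.187, for counting error only). The spread between libraries is not in that interval, and no test was made. Cpa3 had 1, 14, 2 and 0 reads in KO and 0, 2 and 3 in wild type, so the groups overlapped. Gata2 had 2, 0, 0 and 0 reads in KO and 0, 3 and 1 in wild type. Mcpt8, Ms4a2, Fcer1a and Prss34 had 0 reads in all 7 libraries. Hdc was the only member to pass the filter on low values there.

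The members were chosen with earlier results of these data known, but these held no result of the members in the culture comparison. Cpa3 was the member with the highest level in culture, with 5.37 and 7.36 scaled RPKM in KO, against 15.5 and 6.16 in wild type. The groups overlapped, and the log2 fold change of -0.57 (SE 0.36) did not pass limma's test (adjusted p = 0.9997, unadjusted p = 0.147, n = 2 each). Without wild type replicate 1 the log2 fold change was 0.028. Cpa3 was higher in each of the 4 culture libraries than in any of the 7 lymph node OTII libraries, where it reached at most 0.383, as were 15.0% of 11091 genes. Hdc had 10 and 17 reads in KO cultures and 11 and 11 in wild type cultures, and Mcpt8 had 1 and 2 in KO and 6 and 2 in wild type. Ms4a2 and Fcer1a had 1 read each, in KO replicate 2, and Prss34 (NM_178372, chromosome 17, 25298394 to 25300161, plus strand) had none in any of the 17 libraries. Of 10968 genes tested in culture 0 (0.0%) passed in limma, with 256 (2.33%) at an unadjusted p under 0.05 and 2 called by limma voom.

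Beyond the 8 members, 27 other genes of the basophil program were followed in the same fits. They cover IgE receptor signalling, mediator synthesis, cytokine receptors, cytokines, surface proteins and transcription factors, and many are expressed by other leukocytes as well. In the airway 8 of the 23 tested genes were higher and 2 were lower than in the lymph node, and 13 did not pass. Over all genes tested 5.27% were called, 2.97% higher and 2.3% lower. The median log2 fold change of the 23 was 0.83, against -0.07 over all genes. The count was 3 of 27 with no filter, 2 of 23 with limma voom, and 3 of 24, 3 of 23 and 5 of 24 without lymph node replicates 2, 3 and 1. Without airway replicate 2 it was 5 of 24.

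Fcer1g, the gamma chain shared by IgE and IgG receptors, had 76.2, 50.4 and 56.6 scaled RPKM in the airway, against 0, 2.00 and 2.29 in the lymph node (limma log2 fold change 4.83, SE 0.52, adjusted p = 0.00171). The gamma chain was thus read where both other receptor chains were at 0. Il1rl1 had 205, 183 and 219 in the airway, against 37.5, 39.1 and 42.2 in the lymph node (log2 fold change 2.32, SE 0.17, limma adjusted p = 2.85e-04). Its call held in each of the 11 other settings tried. Csf2rb, the beta chain of the interleukin-3 and interleukin-5 receptors, had 3.35, 10.2 and 4.01, against 0.00980, 0.208 and 0. Il3ra, the interleukin-3 receptor alpha chain, averaged 17.3 ± 5.17 in the airway and 17.7 ± 5.35 in the lymph node and did not pass (limma adjusted p = 0.974).

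Of the 5 mediator genes 2 rose in the airway, Alox5ap and Ltc4s, both of leukotriene synthesis. Alox5, the lipoxygenase of that pathway, averaged 4.11 ± 3.85 in the airway and 1.497 ± 1.82 in the lymph node and did not pass (limma adjusted p = 0.661), nor did Hpgds and Slc18a2. Alox5ap had 15.0, 22.7 and 19.5 scaled RPKM in the airway, against 0, 1.81 and 4.35 in the lymph node. Ltc4s had 4.01, 5.85 and 2.73 and was listed at 0 in all 3 lymph node libraries. The surface genes Cd9 and Cd63, both tetraspanins, had log2 fold changes of 3.60 and 2.60, and Cd200r1, the inhibitory CD200 receptor, 0.80 (limma adjusted p = 0.0424). That of Cd200r1 was lost in 10 of 11 other settings, that of Alox5ap in 8, and those of Ltc4s and Csf2rb in 6 each. Cd63 lost its call in 5 settings, Cd9 in 2 and Fcer1g in 1.

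The cytokine genes went the other way or stood level. Il4 had 187, 164 and 91.6 scaled RPKM in the airway, against 331, 512 and 579 in the lymph node (log2 fold change -1.70, SE 0.29, limma adjusted p = 0.0123, lost without lymph node replicate 2 or 3 and with no filter). Il13 averaged 37.2 ± 9.42 in the airway and 93.2 ± 33.0 in the lymph node (log2 fold change -1.27, SE 0.31, limma adjusted p = 0.0480, lost in 8 of 11 settings). Il6 averaged 36.3 ± 5.42 in the airway and 38.0 ± 16.7 in the lymph node and did not pass. Itga2, the alpha 2 integrin that the DX5 antibody binds, averaged 3.93 ± 4.27 in the airway and 2.08 ± 0.682 in the lymph node. Slc18a2, the vesicle transporter that loads histamine, had 4.89, 0.178 and 0.794 in the airway and 1.01, 1.35 and 1.35 in the lymph node, and neither it nor Itga2 passed. Gata1 was listed at 0 in the airway and had 111, 1 and 0 reads in the lymph node reporter libraries.

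**Figure D3:**
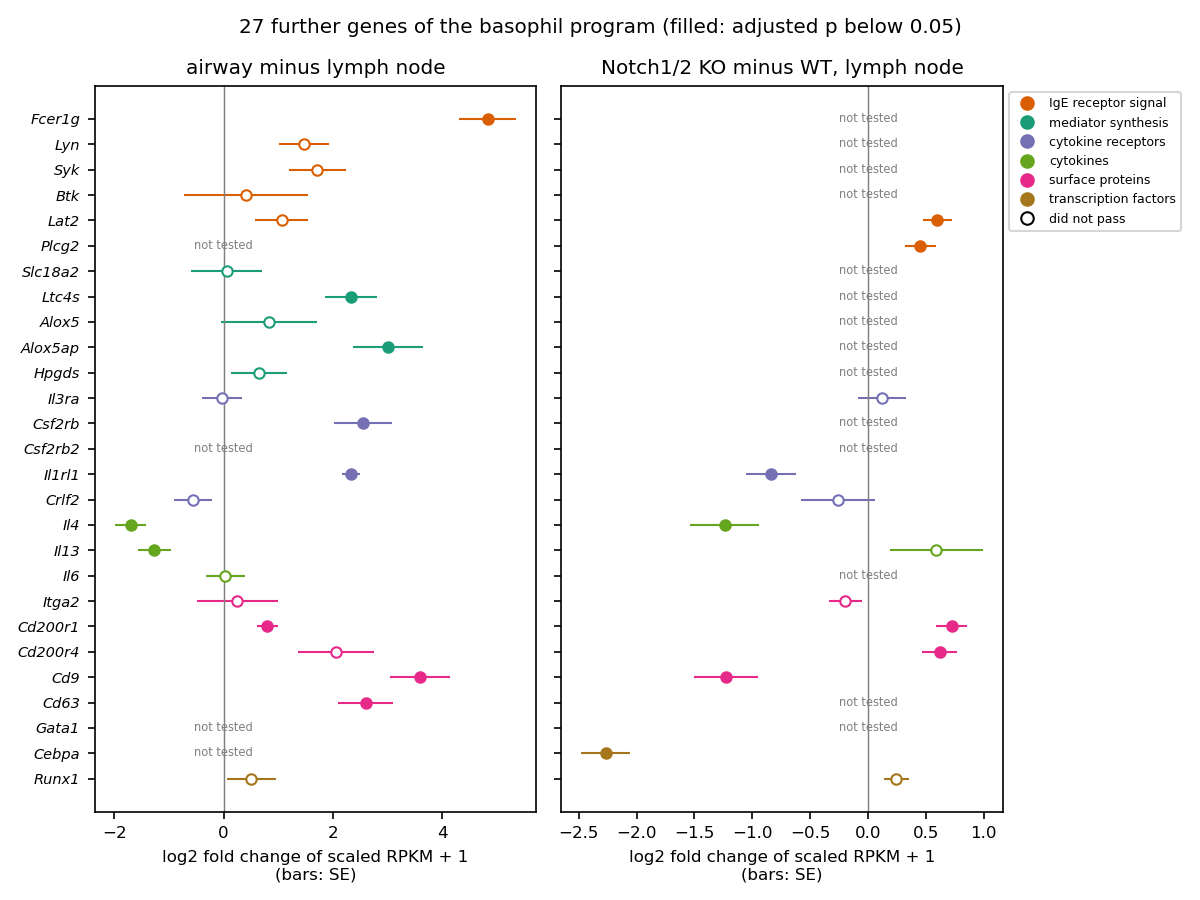
Log2 fold changes of scaled RPKM + 1 with their SE (x axes) for 27 other genes of the basophil program (rows, coloured by role), airway minus lymph node on the left and lymph node Notch1/2 KO minus wild type on the right. Filled points passed an adjusted p of 0.05 in limma: 8 higher and 2 lower on the left, 4 higher and 4 lower on the right.

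Of the 27 genes 13 were tested in the lymph node OTII libraries, and of these 4 rose and 4 fell in KO and 5 did not pass. Over all genes tested 18.1% were called there, 10.4% higher and 7.68% lower. The median was 0.12, against 0.02 over all genes. Cebpa, which encodes a transcription factor of myeloid and basophil development, averaged 0.160 ± 0.101 scaled RPKM in KO and 4.80 ± 2.05 in wild type (SD, n = 4 and 3; log2 fold change -2.27, SE 0.21, limma adjusted p = 1.94e-04). Its reads were 3, 7, 12 and 14 in KO, against 345, 192 and 219 in wild type. Cd200r1 rose, with 8.67, 12.8, 10.9 and 11.5 in KO, against 5.37, 6.26 and 7.07 in wild type (limma adjusted p = 0.00740). The calls of Cebpa and Cd200r1 held in all 13 other settings.

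Il4 averaged 19.7 ± 8.24 scaled RPKM in KO and 44.7 ± 4.75 in wild type, a log2 fold change of -1.24 (limma adjusted p = 0.0207, lost without KO replicate 3, without any 1 wild type library and with no filter). Il1rl1 averaged 0.390 ± 0.397 and 1.44 ± 0.425 in KO and wild type, and Cd9 14.3 ± 6.35 and 32.7 ± 4.66. Lat2, Plcg2 and Cd200r4 rose, with log2 fold changes of 0.60, 0.45 and 0.62. Lat2 and Plcg2 act below the IgE receptor and other immune receptors. The call of Plcg2 was lost in 9 of 13 settings, and those of Il1rl1 and Cd200r4 in 7 each. Il13 averaged 15.2 ± 6.56 in KO and 9.85 ± 5.60 in wild type and did not pass (limma adjusted p = 0.349), nor did Il3ra and Itga2. The count was 4 of 14, 3 of 15 and 3 of 14 without wild type replicates 1, 2 and 3, and 5 of 12 and 5 of 13 without KO replicates 1 and 3. In culture 0 of 17 tested genes of the list passed in limma and 0 in limma voom, with 1 at an unadjusted p under 0.05.

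Macrophage markers, and single markers of neutrophils and eosinophils, were higher in the airway. The 8 macrophage markers summed to 3061 to 7232 scaled RPKM in the airway libraries, against 10.99 to 49.99 in the reporter libraries of the lymph node, and 5 of the 6 tested were higher. Chil3, the most abundant of them, had 1147 to 5385 in the airway and at most 0.123 in the lymph node. Several genes called higher above, among them Fcer1g, Alox5ap, Csf2rb, Cd9 and Cd63, are also expressed by macrophages, and the part of macrophage RNA in those calls was not tested. The neutrophil marker S100a8, the 1 tested of 7, had 3.68 to 6.43 in the airway and was listed at 0 in the lymph node (limma adjusted p = 0.0187), with Mpo and Elane listed at 0 in both. Of 3 eosinophil markers tested 1 was higher, the ribonuclease gene Ear2, which averaged 31.0 ± 5.97 in the airway and was listed at 0 in the lymph node (limma adjusted p = 0.00100). Ccr3, the most abundant eosinophil marker over all 17 libraries, averaged 22.5 ± 10.6 in the airway and 12.8 ± 6.08 in the lymph node and did not pass (limma adjusted p = 0.462). The eosinophil peroxidase gene Epx was listed at 0 in all 6 libraries. Whether the Ear2 reads came from eosinophils or from macrophages was not tested. The dendritic cell marker Xcr1 averaged 12.6 ± 2.99 in the airway and 2.48 ± 1.40 in the lymph node and did not pass (limma adjusted p = 0.05004).

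Of 10 mast cell markers 2 could be tested and 1, Cma1, was lower in the airway, where 2.3% of all genes were. The 10 genes summed to 0 to 0.586 scaled RPKM in the airway, against 7.93 to 23.3 in reporter libraries of the lymph node. Cma1, which encodes a chymase of mast cells, was listed at 0 in the airway and had 14.0, 20.04 and 6.57 in the lymph node (limma adjusted p = 0.00741). Kit, the stem cell factor receptor of mast cells, had 0, 0 and 0.164 in the airway, against 5.41, 2.17 and 1.32 in the lymph node, and did not pass (limma adjusted p = 0.0964). Of the other mast cell markers, Mcpt4, Tpsb2, Tpsab1, Mrgprb1 and Mrgprb2 were at 0 in all 3 lymph node reporter libraries. Mcpt2 averaged 1.29 and reached 3.88 there, and Mcpt1 and Mitf averaged 0.0152 and 0.0137. Cma1 and Kit thus made up most of the sum. The part of mast cells in the levels of Hdc and Cd200r3 was not tested.

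Of the remaining lists, the B cell markers summed to 3.72 to 35.9 in the airway and 34.8 to 56.8 in the reporter libraries of the lymph node, and 1 of 4 tested was lower. That was Cd79b, a chain of the B cell receptor complex, which averaged 0.539 ± 0.934 in the airway and 18.6 ± 4.23 in the lymph node. Its log2 fold change of -3.81 (limma adjusted p = 0.00753) is close in size to that of Mcpt8, and the part of B cell RNA in the levels of the members was not tested. NK cell markers reached 6.35 at most in the airway and 3.60 in the lymph node, platelet markers 4.97 and 0.0506, and progenitor markers were listed at 0. The 10 T cell markers were all at 1 or more in every library. They summed to 4853 to 5316 in the airway and 4410 to 4915 in the lymph node reporter libraries. Cd3g, the most abundant, averaged 1197 ± 15.2 and 1026 ± 91.1 there, Gata3 417 ± 63.5 and 404 ± 55.7, and Cd4 418 ± 72.8 and 502 ± 84.8.

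In the lymph node OTII libraries Gata3 averaged 40.3 ± 4.51 in KO and 56.0 ± 5.51 in wild type (limma adjusted p = 0.0169), and Cd4 did not pass. Beside Hdc there, the mast cell sum was 0.166 to 0.302 in KO and 0.227 to 0.287 in wild type, with Kit at no more than 0.0544 in any library and Cma1 at 1 read in all. The macrophage sum was 2.66 to 4.16 in KO and 5.26 to 6.35 in wild type, and the eosinophil sum 2.40 to 6.22 in KO and 6.89 to 7.81 in wild type. Cd68 was the macrophage gene that fell, to 1.22 ± 0.146 in KO, against 3.34 ± 0.895 in wild type (limma adjusted p = 0.00336). Lyz2, the other macrophage gene tested, averaged 1.72 and 1.95 and did not pass. Most of the eosinophil sum was Siglecf, which averaged 3.53 in KO and 6.38 in wild type and did not pass (limma adjusted p = 0.0702). The NK cell sum was 1.14 to 2.69 in KO and 4.43 to 7.97 in wild type. Eomes averaged 1.19 in KO and 1.14 in wild type, Prf1 0.137 and 0.341, and Ncr1 and Klra8 0.0398 or less. Of the 5 NK genes only 1, Klrb1c, was tested. Klrb1c, the NK1.1 antigen gene, fell to 0.268 ± 0.143 in KO, against 4.14 ± 1.34 in wild type (log2 fold change -1.996, limma adjusted p = 1.66e-04). The part of such cells in the level of Hdc was not tested.

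Mcpt8 lies in a cluster of mast cell protease and granzyme genes, and its neighbours within 200 kb were looked up after the levels of Mcpt8 had been seen. In the lymph node reporter libraries Gzmb, which encodes the cytotoxic protease granzyme B, averaged 505 scaled RPKM, Mcpt8 132 and Cma1 13.5. Mcpt2, Mcpt-ps1 and Gzme averaged 1.29, 1.09 and 0.455 there, and Mcpt1, Mcpt9, Cma2, Ctsg and Gzmc 0.280 or less. Mcpt4, Gzmd, Gzmg, Gzmn and Gzmf had no reads. These genes are paralogs, and how reads that fit several of them were counted is not given in the sources used here. In the airway Gzmb averaged 42.4, against 505 in the lymph node (log2 fold change -3.54, limma adjusted p = 3.28e-04), a change close in size to that of Mcpt8. In the lymph node OTII libraries, where Mcpt8 had 0 reads, Gzmb averaged 2.88 in KO and 117 in wild type (limma adjusted p = 0.00142). Khnyn and Sdr39u1, which lie beyond Cma1, did not pass in either comparison.

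**Figure D4:**
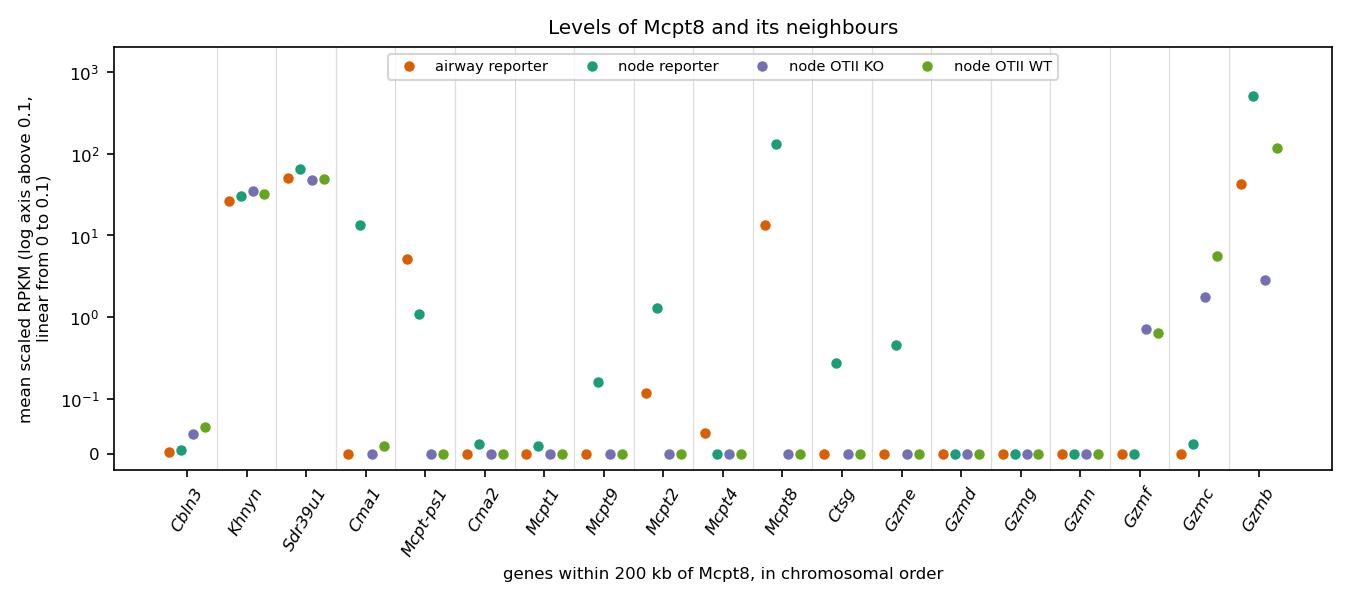
Mean scaled RPKM (y axis, logarithmic above 0.1 and linear from 0 to 0.1) of the genes within 200 kb of Mcpt8 in chromosomal order (x axis) in 4 groups, given by colour. Mcpt8, at 132 in the lymph node reporter group and 13.6 in the airway group, stands beside Mcpt4 and Ctsg, each at 0.280 or less, and Gzmb shows the same order of the reporter groups at 505 and 42.4.

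Neighbours of the other abundant members had other patterns. Around Hdc, Gabpb1 and Usp8 averaged 20.3 and 19.9 scaled RPKM in the airway and 25.7 and 18.9 in the lymph node, and neither passed. Slc27a2, next to Hdc, was listed at 0 in all 6 reporter libraries. Around Cd200r3, its relative Cd200r1 averaged 175 in the airway and 99.9 in the lymph node, while Cd200r3 averaged 30.1 and 41.8 there. In the lymph node OTII libraries Cd200r1 and Cd200r4 rose in KO, while Cd200r3 had 1 read in KO against 23 in wild type.

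Genes whose pattern over libraries was most like that of the members were ranked by Pearson's r with the mean log2(scaled RPKM + 1) of the 8. Over the 6 reporter libraries, where this mean is set by Mcpt8, Hdc, Cd200r3 and Cpa3, the first 8 of 7725 genes were Jarid2 (r = 0.994), Uqcc2, Kif15, Tmpo, Il4, Il17rb, Uros and Smco4 (r = 0.979). Jarid2 had 5.39, 4.25 and 2.75 scaled RPKM in the airway and 8.68, 11.5 and 11.2 in the lymph node. Il17rb, a chain of the interleukin-25 receptor, had 52.4, 25.0 and 24.0 in the airway and 101, 142 and 116 in the lymph node. Of all candidates 116 (1.502%) had r above 0.9, and 7 of the 8 were also first with RPKM as deposited. All 8 were lower in each airway library than in any lymph node library, as were 13.8% of the 10111 genes tested. The mean used for the ranking was lower there too, so nothing is read from that count. The 6 points share mouse kind and library set.

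Over the 7 lymph node OTII libraries, where Hdc was the only member past the filter, the first 8 of 8356 genes were Etv6 (r = 0.996), Lgmn, Mrpl18, Gramd4, Ddx21, Frmd4b, Dph5 and Snx2 (r = 0.990). Lgmn, which encodes the lysosomal protease legumain, had 2.61, 4.12, 2.16 and 1.57 scaled RPKM in KO and 27.4, 29.2 and 26.9 in wild type. Etv6 had 10.98 to 12.7 in KO and 18.2 to 19.2 in wild type. Here 401 candidates (4.80%) had r above 0.9, and 6 of the 8 were also first with RPKM as deposited. All 8 were lower in each KO library than in any wild type library, as were 14.1% of the 10869 genes tested. The mean used for the ranking was lower in KO too, so nothing is read from that count. None of the 8 genes of this set was among the 8 of the reporter set.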

How the data were processed

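RNA of sorted or cultured mouse Th2 cells was measured in 17 Smart-seq2 libraries. For each library the authors deposited RPKM values (reads normalised to transcript length and sequencing depth) of 24537 genes, each under 1 RefSeq transcript with its mm10 position. Per the submitters' processing notes, HISAT2 2.0.4, HOMER and DESeq2 were used on mm10. All 8 members had the same transcript in every table, while 1644 other genes, Cebpa and Lyn among them, had another transcript in the reporter tables than in the OTII tables. For 29 symbols spoilt in the symbol column the annotation field was used.

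RPKM times transcript length came in whole steps of 1 read (99.2% or more of values below 100 reads, tolerance 0.1 read), which gave the reads behind each value. A factor per library, the median ratio to the geometric mean over the 6796 genes at 1 or more in all 17 libraries, then scaled RPKM. Each pair of groups was compared with limma 3.58.1 in R 4.3.3 (lmFit, eBayes with trend) on log2(scaled RPKM + 1). Tests were two-sided, p-values were adjusted by Benjamini and Hochberg's method across every gene in the fit, and the threshold was 0.05. Fold changes on this scale understate changes of low genes. Genes entered a fit with 1 scaled RPKM or more in a number of libraries equal to the size of the smaller group. The other settings were RPKM as deposited, a pseudocount of 0.1, no filter, limma voom on the reads, a replicate block, each library left out in turn and, chosen after seeing the data, averaging of lymph node OTII libraries that share the first number in their file header and a crossed block in culture.

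The members, the 27 other basophil genes, the 10 marker lists and the tests were chosen with earlier results of these data known. Genes named are the members, 14 fixed genes, listed genes past the threshold, the 8 genes most like the members in each of 2 sets of libraries, and the most abundant gene of each marker list. Neighbours of the members and other marker genes named were chosen after their values were seen. Promoter sequences are RefSeq's on GRCm38.p6. Tables were read with Python 3.11.15 and pandas 2.3.3.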

Additional observations from a re-analysis of the deposited data

Results flagged for a closer look

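The members, the 27 other basophil genes, Kit, Cd4, Gata3 and Cma1 were searched for genes that went opposite ways in lymph node and culture. The genes counted averaged at least 1 scaled RPKM in KO or wild type, in lymph node and in culture. Their KO libraries all lay on one side of wild type in lymph node and on the other in culture. There were 3. The log2 fold change of KO against wild type was 0.45 in lymph node and -0.27 in culture for Plcg2, a phospholipase below the IgE receptor and other immune receptors. It was 0.62 in lymph node and -0.42 in culture for Cd200r4, a relative of Cd200r3. In culture Cd200r4 averaged only 0.546 in KO and 1.07 in wild type and did not pass the filter on low values. For Gata3, the Th2 regulator, the log2 fold change was -0.47 in lymph node and 0.47 in culture. Below that level, Cd200r3 had 1, 0, 0 and 0 reads in KO lymph node libraries, against 7, 5 and 11 in wild type, and 1 and 2 reads in KO cultures, against 0 and 1 in wild type. None of these differences between lymph node and culture was tested. In lymph node 14.1% of all genes tested were lower in every KO library than in any wild type library, and 17.2% were higher. In culture, with 2 libraries per group, these shares were 10.8% and 10.4%. How many of all genes lay on opposite sides in lymph node and culture was not counted, so nothing is read from the count of 3. Among 14 listed genes with a mean of at least 1 scaled RPKM in the 4 KO lymph node libraries, no library stood apart from the other 3 by Dixon's criterion.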

How the results depend on the processing

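All fold changes of members printed for the airway and lymph node OTII comparisons kept their sign in every setting run. That of Cpa3 in culture ranged from -1.18 to 0.028 with 1 library left out, the highest without wild type replicate 1. Called genes in the airway comparison numbered 533 (300 higher, 233 lower), 546 with RPKM as deposited (229 higher, 317 lower), 224 with no filter, 244 with voom and 113 to 554 with 1 library left out (113, 163 and 158 without lymph node replicates 3, 2 and 1). With deposited RPKM the median over all genes tested was -0.20 on the log2 scale, against -0.07 after scaling. Other basophil genes called there numbered 10, and 3 with no filter, 2 with voom and 3 to 9 with 1 library left out. In lymph node OTII libraries 1965 genes were called, 636 with the replicate block and 1008 to 2716 with 1 library left out (1008 and 1045 without wild type replicates 2 and 3, 1303 without KO replicate 4). Other basophil genes called numbered 8 there, 4 with the block and 3 to 8 with 1 library left out. In culture 0 genes were called, 2 with voom, 65 with the block, 8 with the crossed block and 0 to 65 with 1 library left out (60 and 65 without KO replicates 1 and 2), where the lone library was assumed to vary like its partners. Same-numbered libraries did not deviate together (r from -0.32 to 0.03), so the block rests on a shared number only, although each reporter library correlated best with its own number. Some lymph node OTII libraries of different numbers did deviate together (r = 0.44 for KO 1 with wild type 2, 0.50 for KO 2 with wild type 3, 0.26 for KO 4 with wild type 1). The first 2 of these pairs share the second number in their file headers, whose meaning is not given. The other pairs that share it had r from -0.064 (KO 1 with wild type 1) to 0.203 (KO 3 with wild type 2). The cause of these moves was not tested, except that fewer libraries or more genes enter by construction. Hdc had 6 to 20 reads in KO lymph node libraries, which limits the precision of its ratio.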
